A study of Mus musculus with 8 samples.

Results

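The probes examined here are those whose names mark them as mouse lincRNAs (long intergenic noncoding RNAs) on a microarray of mouse long noncoding RNAs and mRNAs. Each was taken by its name and not by a measured value, though the rule was set with earlier results of these data known. In all, 649 probe names start with mouselincRNA and 83 hold LINCRNAEXON, which makes 732 of the 60915 probes on the array. Labelled RNA from 8 male DBA/1 mice aged 5 weeks was hybridised, with 1 array per mouse. There were 4 mice of a model of sudden unexpected death in epilepsy (SUDEP group) and 4 normal mice (normal group), so that strain, sex and age were shared by both groups. DBA/1 is an inbred strain prone to sound-induced seizures that can stop breathing. The labels used here do not say how seizures were evoked or how long after them tissue was taken. The series text names brainstem and the sample labels name brain tissue. No probe could be tied to any of 24 marker genes of neurons, glia, vessels or blood, so the tissue was not checked against markers. In whole tissue, fewer cells of a type and less RNA per cell cannot be told apart.

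LincRNAs are transcripts longer than typical small RNAs that lie between protein-coding genes and carry no long open reading frame. They are transcribed, capped and spliced much like mRNAs, but most are less abundant, and many are restricted to few tissues, the brain prominent among them. A large share of the first mouse lincRNA catalogues was drawn from chromatin marks of active genes, which place a transcript on the genome without showing which DNA strand it is copied from. Each probe name here holds a number and a plus or minus sign. For 329 numbers both signs are present (317 mouselincRNA and 12 LINCRNAEXON), and 74 numbers have a single sign. What the sign stands for is not stated in the files. None of the 732 names matched a RefSeq symbol, synonym or locus tag, and the probe sequences and positions are not used here, so each probe is given by its name and no gene, exon or strand is assigned to it.

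Most of these probes gave a signal above background in the tissue. In the scanner software's call, 452 of 732 (61.7%) were well above background in 4 mice or more, and 384 (52.5%) were so in all 8. A further 209 (28.6%) were above background on no array, and 139 lay between. Past the limit of 4 arrays were 397 of 649 mouselincRNA probes (61.2%) and 55 of 83 LINCRNAEXON probes (66.3%). On all 8 arrays 51.6% and 59.0% were above background, and on no array 29.7% and 19.3%. Detection was similar for both signs, with 228 of 372 plus probes and 224 of 360 minus probes past the limit. By comparison, 81.9% of the 58141 probes named ASMM10P, the main family of the array, passed the same limit, and 12.3% were above background on no array.

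The number of mouse lincRNA probes above background in each mouse was 460, 470, 442 and 439 in normal 1 to 4, and 399, 455, 476 and 457 in SUDEP 1 to 4. SUDEP 1 was the lowest of the 8 and SUDEP 3 the highest, and the groups overlapped. The ASMM10P probes ran alike, from 75.6% above background in SUDEP 1 to 84.2% in SUDEP 3. Being above background is a weak criterion on this array. Of 15 probes named as negatives, 2 were above background on all 8 arrays, the brighter at intensities of 32.9 to 47.7 (mean 37.9). Of the 732 mouse lincRNA probes, 331 (45.2%) had a mean intensity above that mean, all of them among the 452, and the other 121 of the 452 did not.

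The level of each probe is given as its log2 intensity minus the 75th percentile of its array, so that 0 is the 75th percentile of the array's probes. The mouse lincRNA probes lay low on this scale. Their median over the 8 mice was -3.86, with the middle 50% between -6.41 and -1.63, against a median of -2.10 for the ASMM10P probes. Of the 732, 91 (12.4%) lay above the 75th percentile of the array, against 25.6% of ASMM10P probes. At the dim end, 114 (15.6%) lay between -8 and -7, where 4.97% of ASMM10P probes lay. The middle 50% of the LINCRNAEXON probes lay between -5.40 and -0.52, and that of the mouselincRNA probes between -6.50 and -1.70. The scanner software replaces the lowest signals by a surrogate, so values near the bottom of the scale have no order. An array level depends on the probe as well as on the transcript, so these are levels of sets of probes and not a ranking of transcripts. Where levels were alike, detection was alike. Weighting ASMM10P probes by the number of mouse lincRNA probes in each bin of 1 log2 unit gave 61.8% past the limit of 4 arrays. This follows largely from the level, since the call rests on the same intensity.

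A few of the probes were very bright. The highest mean level was that of MM9LINCRNAEXON10664+_P1, at 7.50, 7.27, 6.92 and 6.64 in normal 1 to 4 and 7.35, 6.90, 7.05 and 6.70 in SUDEP 1 to 4. Its mice overlapped fully, and the limma log2 difference (SUDEP minus normal here and below) was -0.08 (95% interval -0.52 to 0.35). The probe of the other sign, MM9LINCRNAEXON10664-_P1, was at -2.50 ± 0.43 in normal and -2.48 ± 0.45 in SUDEP mice (SD, n = 4 each). Next was mouselincRNA1606-_P1, described further on. MM9LINCRNAEXON10490+_P1 was at 5.98, 5.95, 5.81 and 6.26 in normal and 6.13, 5.94, 5.92 and 5.87 in SUDEP mice, a difference of -0.04 (95% interval -0.30 to 0.23). For mouselincRNA0970-_P1 the level was 5.89 ± 0.10 and 6.03 ± 0.06, with a difference of 0.14 (-0.07 to 0.35). For mouselincRNA0344-_P1 it was 5.73 ± 0.09 and 5.75 ± 0.12 (0.02, -0.21 to 0.24), and for mouselincRNA0158-_P1 5.18 ± 0.19 and 5.39 ± 0.09 (0.22, -0.04 to 0.47). These 5 bright probes other than mouselincRNA1606-_P1 thus had intervals that include 0 and reach no further than -0.52 or 0.47.

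The probes of one number were detected together about as often as their rates alone give. Of the 329 numbers with both signs, both probes passed the limit of 4 arrays in 127 (38.6%), neither in 49 (14.9%) and a single probe in the other 46.5%. That last set was split evenly, with the plus probe alone in 74 numbers and the minus probe alone in 79. Over these numbers 201 plus and 206 minus probes passed the limit, and the product of those rates gives 38.3% with both, 14.5% with neither and 47.2% with a single probe. In 111 numbers 1 probe was above background on all 8 arrays and the other on none, in 53 the plus and in 58 the minus, which is 33.7% of the numbers where the rates alone give 30.8%. Pairs in which both probes were above background on all 8 arrays numbered 87. In the 4 of these with the largest gap between the mean levels, 1 probe was bright: 10664 and 11711 of the LINCRNAEXON probes, and 1294 and 0158 of the mouselincRNA probes. MM9LINCRNAEXON11711+_P1 was at 5.20 ± 0.46 in normal and 5.06 ± 0.15 in SUDEP mice, and MM9LINCRNAEXON11711-_P1 at -2.82 ± 0.11 and -2.75 ± 0.11 (SD, n = 4 each). mouselincRNA1294+_P1 was at 5.07 ± 0.21 and 5.08 ± 0.12, and mouselincRNA1294-_P1 at -3.81 ± 0.30 and -4.19 ± 0.12. mouselincRNA0158+_P1 was at -2.60 ± 0.19 and -2.72 ± 0.24 beside its bright minus probe. None of these differed between the groups past the adjusted threshold, the lowest limma p being that of mouselincRNA1294-_P1 (unadjusted p = 0.0271, adjusted p = 0.540). In the 2 pairs with the smallest gap, mouselincRNA1117+_P1 was at -0.66 ± 0.33 in normal and -0.82 ± 0.09 in SUDEP mice, and mouselincRNA1117-_P1 at -0.85 ± 0.21 and -0.78 ± 0.15. mouselincRNA1190+_P1 was at -2.43 ± 0.27 and -2.74 ± 0.51, and mouselincRNA1190-_P1 at -2.60 ± 0.12 and -2.48 ± 0.13.

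Mice of the same group differed little in most of the probes. The pooled SD within groups had a median of 0.19 log2 units over the 452 tested probes, or 1.14-fold, with the middle 50% between 0.14 and 0.27. It depended on the level. The median SD was 0.32 for probes between -5 and -4, 0.25 between -4 and -3, 0.19 between -3 and -2, 0.15 between -2 and -1 and 0.14 between -1 and 0. The ASMM10P probes in the same bins had 0.33, 0.24, 0.19, 0.16 and 0.15. Averaged over all bins, weighted by the number of mouse lincRNA probes, the bin medians came to 0.21 in both families. The normal mice were more spread than the SUDEP mice, with a median SD of 0.20 against 0.14. The SD was larger in normal mice for 294 of the 452 probes (65.0%) and for 68.3% of the tested ASMM10P probes, so this was shared by the array. The 75th percentile of intensity was 458 and 455 in normal 1 and 2 and 352 to 377 in the other 6 mice; its part in the spread was not tested.

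Among probes above background on all 8 arrays, the 4 with the largest SD within groups varied in different mice. mouselincRNA0582-_P1 was at -1.50 in normal 1, and at -3.80, -4.37 and -3.91 in normal 2 to 4. In SUDEP 1 to 4 it was at -3.89, -4.41, -3.88 and -4.21, so that normal 1 lay far above every other mouse. The plus probe of that number was above background on no array. mouselincRNA0999+_P1 was at -4.03, -4.06, -4.57 and -4.05 in normal mice and at -2.27, -4.26, -4.13 and -4.90 in SUDEP mice, so that SUDEP 1 lay above the other 7. mouselincRNA0294-_P1 was at -3.47, -3.26, -3.34 and -3.02 in normal mice and at -1.84, -3.22, -3.35 and -3.44 in SUDEP mice, again with SUDEP 1 on its own. mouselincRNA0463+_P1 spread more evenly: it was at -1.79, -2.11, -3.05 and -3.53 in normal and at -2.83, -2.59, -2.32 and -2.96 in SUDEP mice. Normal 1 and 2 were its highest values and normal 3 and 4 its lowest.

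A single mouse lay at least 2-fold above the other 7 in 6 of the 452 tested probes, and 4 of these 6 were in SUDEP 1. Besides the probes just named, these were mouselincRNA0307-_P1 (-2.11 in SUDEP 1, others -5.62 to -4.73), mouselincRNA1555-_P1 (-2.25, others -5.14 to -4.35) and, in SUDEP 3, mouselincRNA0770+_P1 (-1.77, others -3.28 to -2.85). The choice of these 3 was made from their values. A single mouse lay at least 2-fold below the other 7 in 3 further probes, each above background on 4 or 5 arrays: mouselincRNA1043-_P1 in normal 1, mouselincRNA0858+_P1 in normal 4 and mouselincRNA0065-_P1 in SUDEP 1, likewise named from their values. Intensities in the mouse that stood above were modest, from 72.9 for mouselincRNA0999+_P1 to 162.5 for mouselincRNA0582-_P1. In mouselincRNA1555+_P1, the plus probe of that number, SUDEP 1 was the lowest of the 8 mice, at -3.39. In mouselincRNA0770-_P1, SUDEP 3 was the highest, at -2.48 against -3.18 to -2.56. Over all 49297 tested probes of the array, SUDEP 1 stood 2-fold above in 97 probes, SUDEP 3 in 85, and the other 6 mice in 20 to 37 each. On the lower side SUDEP 1 stood 2-fold below in 67 of the array's tested probes, SUDEP 3 in 40, and the other 6 mice in 6 to 30 each.

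The series set SUDEP against normal brainstem to find noncoding RNAs whose levels differ. None of the 452 tested mouse lincRNA probes passed the test, which was limma with Benjamini-Hochberg adjustment over all 49297 tested probes. The count at an adjusted p under 0.05 was 0 of 452, where 0.0649% of all tested probes were called. The lowest limma adjusted p among the 452 was 0.118. An unadjusted limma p under 0.05 was reached by 47 (10.4%), against 8.13% of all tested probes, and an unmoderated test had 39 at that limit, against 7.55% of all tested probes, and called no probe of the whole array after adjustment. Of the 47, 15 were higher in SUDEP mice (3.32% of the 452) and 32 lower (7.08%). Over all tested probes 3.44% were higher and 4.69% lower. ASMM10P probes of similar level, weighted by bin as before, had 8.96% at that limit. The share was thus a little above that of the array, on the lower side only, and this excess was not tested. Dim probes made up much of the share. It was 16.5% in the 121 tested probes no brighter than the brightest negative, and 8.16% in the other 331. A rise toward dim levels was shared by the array. Of tested ASMM10P probes, 13.7% reached the limit between -5 and -4 and 11.5% between -4 and -3. Their share was 7.16% between -2 and -1 and 6.03% between -1 and 0. The mouse lincRNA probes had 14.3%, 17.9%, 9.09% and 1.82% in the same bins, and the differences from ASMM10P were not tested.

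Differences were small. Half-widths of the 95% interval had a median of 0.29 log2 units, and the median log2 difference over the 452 was 0.00 (middle 50% -0.13 to 0.11), against 0.01 over all tested probes. As many were higher as lower, 226 each. The median over the 452 depended on the setting. With the 75th percentile as a covariate, or without normal 1 and 2, it was 0.04, against 0.01 over all tested probes. With normexp background correction it was 0.04 in both sets. No tested probe differed by 2-fold or more, where 0.357% of all tested probes did; the range was -0.87 to 0.61. With 1 mouse left out, 2 of the 452 reached 2-fold without normal 3 (0.422% of all tested probes), 1 without SUDEP 3 (0.329%) and 1 without SUDEP 4 (0.404%). The 4 SUDEP mice lay beyond the 4 normal mice in 24 of the 452, against 4.78% of all tested probes, with 10 higher (background 2.51%) and 14 lower (background 2.27%). The split of the 47 by direction depended on the setting, and so did that of the array, which had 1696 probes higher and 2310 lower. Without normal 1 and 2, the arrays with the brightest 75th percentile, 44 probes reached the same unadjusted limit, 31 higher and 13 lower, and 18 of them were among the 47. Of all tested probes 8.47% reached it there, 2299 higher and 1876 lower. With either of these mice left out alone, more of the probes were lower than higher (14 higher and 22 lower without normal 1, 18 and 29 without normal 2). Over all tested probes 1652 were higher and 1574 lower without normal 1, and 1494 and 2337 without normal 2. With another background correction, normexp on the median intensity, 86 of the 452 (19.0%) reached the limit, 54 higher and 32 lower, against 17.1% of all tested probes, 5258 higher and 3152 lower.

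Of the tested probes lower in SUDEP mice, mouselincRNA0508-_P1 had the smallest p. Its level was -3.37, -3.54, -3.52 and -3.57 in normal mice and -4.07, -4.05, -3.96 and -4.37 in SUDEP mice. The groups did not overlap, and the log2 difference was -0.61 (SE 0.11, n = 4 each, limma unadjusted p = 2.5e-04, adjusted p = 0.118). Its mean intensity of 28.6 lay below that of the brightest negative. mouselincRNA1278+_P1 was at -2.47, -2.51, -2.63 and -2.72 in normal and -3.44, -3.03, -2.97 and -3.47 in SUDEP mice, a difference of -0.64 (95% interval -0.95 to -0.34, limma adjusted p = 0.186). mouselincRNA0553+_P1 was at -2.82, -3.19, -3.23 and -3.01 in normal and -3.63, -3.41, -3.75 and -3.64 in SUDEP mice, a difference of -0.55 (-0.82 to -0.28, limma adjusted p = 0.215). In both, each SUDEP mouse lay below each normal mouse. mouselincRNA0892-_P1 had -3.01 ± 0.12 in normal and -3.46 ± 0.12 in SUDEP mice, a difference of -0.44 (limma adjusted p = 0.242). mouselincRNA1124+_P1 had -2.73 ± 0.36 and -3.43 ± 0.13, a difference of -0.70 (limma adjusted p = 0.249). Values after ± are SDs (n = 4 each), and neither of these last probes had groups that overlapped. The probes after mouselincRNA0508-_P1 had mean intensities of 54.0, 39.7, 42.0 and 47.8 in the order given, above the mean of the brightest negative (37.9). Their lowest intensities were 32.3, 27.3, 28.6 and 30.1, below the lowest of that negative (32.9).

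The brightest probe among those with a small p was mouselincRNA1606-_P1. Its level was 6.81, 6.29, 6.20 and 6.33 in normal 1 to 4 and 5.72, 6.02, 5.88 and 5.65 in SUDEP 1 to 4, so that the highest SUDEP mouse stayed under the lowest normal mouse. The log2 difference was -0.59 (95% interval -0.92 to -0.27), or 1.51-fold lower in SUDEP mice, with a limma unadjusted p of 0.00224 and an adjusted p of 0.274. Its intensities ran from 17973 to 51388, far above every negative, and no spot was saturated. Over 21 alternatives the difference stayed negative, between -0.77 and -0.44, and it passed the adjusted threshold in 1 of them, normexp background correction (-0.77, limma adjusted p = 0.0207). That setting called 2 further probes of the 452, both lower and both named only because they passed there. MM9LINCRNAEXON10101+_P1 was at -1.11, -1.56, -1.80 and -1.31 in normal and -2.01, -2.06, -2.02 and -1.90 in SUDEP mice, a difference of -0.55 as scaled above (limma adjusted p = 0.300) and of -0.46 with normexp (adjusted p = 0.0288). MM9LINCRNAEXON11298-_P1 was at 0.64, 0.59, 0.39 and 0.49 and at 0.28, 0.20, 0.24 and 0.26, a difference of -0.28 (limma adjusted p = 0.445; -0.38 and 0.0421 with normexp). With normexp 0.487% of all tested probes passed. The same correction made the differences of the other 5 lower probes with the smallest p smaller: to -0.35 in mouselincRNA1278+_P1, -0.17 in mouselincRNA0508-_P1, -0.19 in mouselincRNA0553+_P1, -0.15 in mouselincRNA0892-_P1 and -0.30 in mouselincRNA1124+_P1.

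Of the probes higher in SUDEP mice, the 6 with the smallest p had log2 differences of 0.34 to 0.47 and limma adjusted p from 0.322 to 0.429. mouselincRNA1266-_P1 was at -3.72, -3.69, -3.68 and -3.57 in normal and -3.50, -3.02, -3.26 and -3.16 in SUDEP mice, a difference of 0.43 (95% interval 0.17 to 0.69). mouselincRNA0917-_P1 was at -4.03 ± 0.18 and -3.66 ± 0.06 and mouselincRNA0614-_P1 at -4.22 ± 0.11 and -3.75 ± 0.29 (SD, n = 4 each). MM9LINCRNAEXON11641+_P1, at -4.58 ± 0.30 and -4.11 ± 0.11, was above background in 3 of the 4 normal mice and in all SUDEP mice. The mean intensities of these 4, between 19.3 and 35.5, did not exceed that of the brightest negative. The other 2 were brighter. mouselincRNA0957-_P1 was at -2.27, -2.06, -2.51 and -2.69 in normal and -1.89, -1.99, -1.92 and -2.01 in SUDEP mice, a difference of 0.43 (0.13 to 0.73). mouselincRNA0909-_P1 was at -1.83, -1.74, -1.45 and -1.55 in normal and -1.32, -1.35, -1.30 and -1.27 in SUDEP mice, a difference of 0.34 (0.10 to 0.57). In both, the 4 SUDEP mice lay close together above the more scattered normal mice. All 12 probes listed by p, 6 in each direction, had groups that did not overlap, but the choice by p in these mice favours such probes.

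Differences of the probes of one number and opposite sign were next compared. In the 127 numbers with both probes tested, the differences had the same sign in 62 (33 both higher, 29 both lower), and Pearson's r across the 127 pairs was -0.08 (Spearman -0.07), a description over probes that share the same 8 arrays. Both probes reached an unadjusted limma p under 0.05 in 2 of the 127, named here because they were so few. In 24 of the 127, 1 of the 2 probes reached it, and 10.4% of all 452 tested probes did. How many such pairs these rates alone give was not worked out, so nothing is drawn from the 2 pairs. In each of them the plus probe was lower and the minus probe higher in SUDEP mice. mouselincRNA0188+_P1 was at -2.10, -1.59, -1.98 and -2.29 in normal and -3.32, -2.49, -2.32 and -3.33 in SUDEP mice. Its difference of -0.87 (95% interval -1.42 to -0.33, limma adjusted p = 0.360) was the most negative of the 452, and its groups did not overlap. mouselincRNA0188-_P1 was at -3.63, -3.44, -3.59 and -3.76 and at -3.68, -3.06, -3.16 and -2.97, a difference of 0.39 (0.04 to 0.73, limma adjusted p = 0.553), with SUDEP 1 among the normal mice. mouselincRNA1453+_P1 was at -0.71, -0.70, -1.32 and -0.82 in normal and -1.09, -1.30, -1.22 and -1.37 in SUDEP mice, a difference of -0.35 (-0.68 to -0.03, limma adjusted p = 0.573). mouselincRNA1453-_P1 was at -4.57, -4.30, -4.24 and -4.62 and at -4.43, -4.04, -3.87 and -3.86, a difference of 0.38 (0.05 to 0.71, limma adjusted p = 0.544). In this pair the groups overlapped in both probes, and the minus probe was dim, above background on 7 of the 8 arrays.

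In 1 tested probe the groups were separated by detection. MM9LINCRNAEXON11593-_P1 was well above background in all 4 normal mice, at -4.33, -4.88, -4.72 and -4.67, and in no SUDEP mouse, where its measured values were -4.98, -4.86, -5.99 and -5.33. The measured values overlapped, since SUDEP 2 lay above normal 2, and the probe entered the test only through the normal mice. It is still counted among the 452 tested probes, and among the 47 at an unadjusted limma p under 0.05. Its log2 difference was -0.64 as scaled above and -0.03 with normexp, and no conclusion is drawn from it for that reason. Its intensities of 5.77 to 22.7 lay below those of the brightest negative. The 280 untested probes were above background on fewer than 4 arrays, and the brightest of them had a mean level of -4.77.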

How the data were processed

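Probes were grouped by name and mice by title; the labels call the mice biological replicates. Ribosomal RNA was removed and cRNA was made by random priming with Cy3, per the labels' protocols. The submitters' processing notes name Agilent Feature Extraction 11.0.1.1 as the scanner software. The deposited scanner files hold processed spot intensities, background-subtracted, detrended and not normalized between arrays per the file headers, with median intensities of spot and background, and flags for a spot well above background; the authors' deposited table holds log2 values of the same arrays, made by a method not given in the sources used here.

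Spots marked as non-uniform or population outliers (0.0529%; 3 values of these probes, all in SUDEP 1) were set to missing. Log2 processed intensities were averaged per probe and the array's 75th percentile subtracted, leaving out control spots and 15 negatives. Probes well above background on at least 4 arrays (49297) entered lmFit and eBayes of limma 3.58.1 (R 4.3.3), with group as the only term and two-sided p. The fitting step was also tested on simulated data. The number of arrays limits the precision. All arrays share 1 scan time, and a code in the headers divides them as the groups do, so any effect tied to that code and the group cannot be told apart.

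Named probes are the 6 with the smallest p in each direction, the 6 with the highest level, the 4 with the largest SD among those above background on all arrays, any with 3 or more arrays' difference in detection between the groups, and 6 pairs by their gap in level (32 probes in all). Members, lists and rules were chosen with earlier results of these data known. Same-numbered mice were not taken as pairs: their deviations correlated at -0.07, 0.30, -0.0041 and 0.16. Marker genes were looked for through RefSeq accessions of assembly GRCm38.p6, which matched 15 reference genes and none of the 24 markers. The fit was repeated with 3 other scalings (cyclic loess, quantile, median), normexp background correction of the median intensities, a stricter limit for dim probes or none, the authors' own table, trended or unmoderated variances, array weights, a block for the replicate number, a covariate for array brightness, and fewer mice.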

Additional observations from a re-analysis of the deposited data

Results flagged for a closer look

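The named probes and the count of probes above background gave 66 groups of 4 mice. In 3 of them the highest or lowest mouse was set apart from the remaining mice. For groups not picked by their values, chance gives about 1 in 20, or 3.3. Most of these groups were picked by values in the same mice, some for a large SD, so nothing is drawn from that rate here. Normal 1 was low in mouselincRNA0344-_P1, at 5.59 where the other normal mice spanned 5.77 to 5.78, and the gap took up 0.918 of the group's range. Normal 3 was low in mouselincRNA0999+_P1, at -4.57 where the other normal mice spanned -4.06 to -4.03 (0.936 of the range). SUDEP 1 was high in mouselincRNA0294-_P1, at -1.84 where the other SUDEP mice spanned -3.44 to -3.22 (0.861 of the range). Over all 452 tested probes, 45 of 904 groups (4.98%) had such a mouse.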

How the results depend on the processing

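The count of 0 mouse lincRNA probes past the adjusted threshold was also 0 in 20 of 21 alternatives by limma or the unmoderated test (35 to 61 at an unadjusted p under 0.05 in these 20) and 3 with normexp background correction, 1 of them among the named probes. At an unadjusted p the 47 became 86 with normexp, and 35 to 61 with 1 mouse left out (35 without SUDEP 4, 61 without normal 3). Over all tested probes the share was 8.13% as scaled above, 17.1% with normexp, 6.52% without SUDEP 4 and 10.5% without normal 3. For the mouse lincRNA probes it was 10.4%, 19.0%, 7.74% and 13.5%. The split of 15 higher and 32 lower became 54 and 32 with normexp, 27 and 17 with the 75th percentile as a covariate and 31 and 13 without normal 1 and 2. The array turned the same way, but less far and from a more even split. Over all tested probes 1696 higher and 2310 lower became 5258 and 3152 with normexp. They became 2154 and 1963 with the covariate, and 2299 and 1876 without these mice. The median SD within groups of 0.193 fell to 0.110 with normexp, which adds an offset of 50 and starts from the median intensities. The cause of this and of the other changes was not tested. A fit that took the replicate number as a block had 0 past the adjusted threshold. At an unadjusted limma p under 0.05 it had 59 (13.1%), against 9.30% of all tested probes. Not every mouse correlated best with its own number. The probes above background numbered 384 on all 8 arrays and 523 on at least 1, against 452. Dim signal limits these values, since 121 of the 452 were no brighter than the brightest negative, and a p above the threshold does not show that groups are alike.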
